A study of Mus musculus with 10 samples.

Results

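The mitosis genes are 39 genes whose products build the spindle, move and separate the chromosomes and divide the cell, chosen by name, out of the 20972 genes that the array names through RefSeq accessions. Every one of the 39 had a probe, 28 of them 1 and 11 several, 53 probes in all, and 35 were well above background on every array. The cells were LSK cells, bone marrow cells without lineage markers but with Sca-1 and c-Kit, among which blood stem cells and early progenitors are found. They were sorted by CD45.2 from transplanted C57BL/6 mice.

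The donor cells of the KO groups carried Cre-Ert;Ezh2fl/fl, in which tamoxifen lets the Cre recombinase delete Ezh2, whose product is the enzyme that puts the repressive Polycomb mark on histone H3. Those of the WT groups carried Cre-Ert alone, so that Cre, tamoxifen and transplantation were shared by all groups. There were 8 KO arrays and 2 WT arrays. At 3 months after transplantation there was 1 KO array, without disease, and 1 WT array. At 9-12 months there were 3 KO arrays labelled MDS/MPN (an overlap of myelodysplastic syndrome with myeloproliferative neoplasm; replicate 1 carries the added label TC and replicate 3 CMMoL), 2 KO arrays labelled MDS (myelodysplastic syndrome), 1 KO array of undetermined disease, 1 KO array of mixed diseases, and 1 WT array. The design text counts 3 mice for the 3-month samples, although KO and WT have 1 array each then, and no source used here says whether RNA of several mice was pooled for the mixed, 3-month and WT arrays, or which mice shared a donor, so that the p-values measure only the spread between these arrays. The 6 KO arrays of 9-12 months other than the mixed one are called the unmixed KO arrays.

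By the labels of the scanner files slide 1 held the 3-month pair, and slide 2 the other 8 arrays, with WT, mixed and MDS in its first row and MDS/MPN and the undetermined KO in its second. Time and slide cannot be told apart. The time labels themselves conflict: 4 columns of the deposited value table, WT and KO at both times, hold the values of the scanner file of the other time, and the genotypes are the same in both. Times here follow the scanner files. Between 32.5% and 47.5% of the 55681 probes were well above background on an array, and 0 were saturated. The 5 LSK markers used (Kit, Ly6a, Cd34, Flt3 and Meis1) were well above background on all 10 arrays. Levels below are the log2 signal over the 75th percentile of the array. The single Ezh2 probe read 2.71 on the KO array of slide 1 against 2.14 on the WT array, and on slide 2 the 6 unmixed KO arrays spanned 2.13 to 3.35 against 2.63 on WT. No source used here says whether it lies in the deleted part, so it does not check the genotypes. In 3 arrays the SD of the log2 ratio to the nearest other array was above that of the rest, over 22356 features: 1.06 for the WT array of slide 1, 0.99 for MDS/MPN replicate 2, which also had the most probes well above background, and 0.94 for the KO array of slide 1, beside 0.62 to 0.75 for the other 7 arrays. The slide 1 values and much of the all-array values below rest on the slide 1 pair, of which the WT array stood farthest apart.

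Entry into mitosis is driven by the kinase Cdk1 with the cyclins A2, B1 and B2, which the phosphatase Cdc25c switches on and the Plk1 and Aurora A kinases assist. Kinetochores then tie chromosomes to spindle microtubules while the spindle checkpoint holds back the anaphase-promoting complex, which, once freed with its activator Cdc20, has cyclins and the inhibitor of separase destroyed. Most of these RNAs are made in the G2 and M phases under a transcription program of the MuvB complex with B-Myb and FoxM1, so that their level in a sorted population follows how many of its cells are dividing. In blood formation long-term stem cells are mostly quiescent, and progenitors divide often. In these bulk samples fewer cells in G2 and M and less RNA per cell cannot be told apart.

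The promoters of the mitosis genes are shown first because shared elements are what this program is known for: the cell cycle genes homology region, TTTGAA or TTCGAA, bound by MuvB, and the CCAAT box, bound by NF-Y. RefSeq windows of GRCm38.p6, from 250 bases before to 50 after the start of transcription, were matched by symbol for 31 of the 39, and 7 are printed 5′ to 3′ on the strand of the gene, with each of these motifs, on either strand, in capitals. Plk1, Aurka, Cdc20, Espl1 and Cenpa stand for the members whose highest level was on the undetermined KO array, Mki67 and Cenpe for those whose highest level was on MDS/MPN replicate 2.
Plk1, chr7:122159185-122159484, plus strand: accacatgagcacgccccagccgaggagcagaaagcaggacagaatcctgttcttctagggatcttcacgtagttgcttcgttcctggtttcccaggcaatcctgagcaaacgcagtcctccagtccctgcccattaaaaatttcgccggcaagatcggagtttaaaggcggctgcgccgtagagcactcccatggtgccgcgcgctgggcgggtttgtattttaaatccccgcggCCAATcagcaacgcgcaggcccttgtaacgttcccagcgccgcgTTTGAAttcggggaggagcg
Aurka, chr2:172370521-172370820, minus strand: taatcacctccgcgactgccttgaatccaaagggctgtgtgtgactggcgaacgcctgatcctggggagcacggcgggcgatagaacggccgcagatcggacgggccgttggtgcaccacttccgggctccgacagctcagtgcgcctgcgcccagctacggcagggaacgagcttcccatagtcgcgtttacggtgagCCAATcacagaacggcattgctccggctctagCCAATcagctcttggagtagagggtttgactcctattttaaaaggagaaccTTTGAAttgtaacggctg
Cdc20, chr4:118437294-118437593, minus strand: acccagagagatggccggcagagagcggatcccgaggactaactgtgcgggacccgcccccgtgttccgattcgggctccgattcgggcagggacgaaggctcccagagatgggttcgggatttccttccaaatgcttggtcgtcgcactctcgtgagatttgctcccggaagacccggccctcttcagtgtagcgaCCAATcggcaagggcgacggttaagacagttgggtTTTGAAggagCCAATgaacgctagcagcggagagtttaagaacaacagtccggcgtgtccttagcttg
Espl1, chr15:102296043-102296342, plus strand: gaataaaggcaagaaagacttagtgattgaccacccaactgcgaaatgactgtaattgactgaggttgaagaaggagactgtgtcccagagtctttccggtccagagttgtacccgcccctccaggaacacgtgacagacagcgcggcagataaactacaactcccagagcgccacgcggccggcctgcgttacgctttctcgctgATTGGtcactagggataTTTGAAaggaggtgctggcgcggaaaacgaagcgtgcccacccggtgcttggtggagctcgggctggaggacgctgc
Cenpa, chr5:30666636-30666935, plus strand: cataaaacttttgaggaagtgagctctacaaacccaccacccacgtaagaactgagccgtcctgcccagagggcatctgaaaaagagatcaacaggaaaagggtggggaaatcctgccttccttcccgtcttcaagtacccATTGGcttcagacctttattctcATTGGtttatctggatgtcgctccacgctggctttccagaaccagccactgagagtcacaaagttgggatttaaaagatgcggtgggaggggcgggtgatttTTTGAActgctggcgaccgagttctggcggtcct
Mki67, chr7:135716330-135716629, minus strand: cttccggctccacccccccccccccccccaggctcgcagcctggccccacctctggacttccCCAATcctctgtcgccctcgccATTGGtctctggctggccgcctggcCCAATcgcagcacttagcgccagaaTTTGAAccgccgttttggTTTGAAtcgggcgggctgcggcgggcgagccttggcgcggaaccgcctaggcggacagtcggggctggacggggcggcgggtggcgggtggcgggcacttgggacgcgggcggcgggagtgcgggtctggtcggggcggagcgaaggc
Cenpe, chr3:135212313-135212612, plus strand: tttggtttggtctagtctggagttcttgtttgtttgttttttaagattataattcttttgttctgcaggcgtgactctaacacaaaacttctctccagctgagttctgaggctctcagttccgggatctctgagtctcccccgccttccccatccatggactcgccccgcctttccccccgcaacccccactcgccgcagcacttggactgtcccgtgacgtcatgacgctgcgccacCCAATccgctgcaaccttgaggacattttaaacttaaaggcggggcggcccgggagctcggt
TTTGAA or TTCGAA lay in the window of 25 of the 31 (80.6%), against 21.7% of all 27025 genes with a promoter, both strands searched and overlaps between motifs allowed. CCAAT lay in 24 (77.4%) against 41.1%, and both motifs in 22 (71.0%) against 8.61%. Cenpe, printed above, holds CCAAT without the other motif. Of 39 matched genes in a list of further G2 and M genes, 28 held TTTGAA or TTCGAA. So did 8 of 30 DNA replication genes and 1 of 12 genes for subunits and activators of the anaphase-promoting complex. Among measured genes outside the set, 16.3% of the 707 with both motifs and 13.3% of the 9547 others were at least 2-fold higher on the KO array than on the WT array of slide 1. Of the members, 15 of 21 with both motifs (71.4%) and 6 of 9 without (66.7%) were. These matches describe letters in a window and are no evidence of binding.

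**Figure D1:**
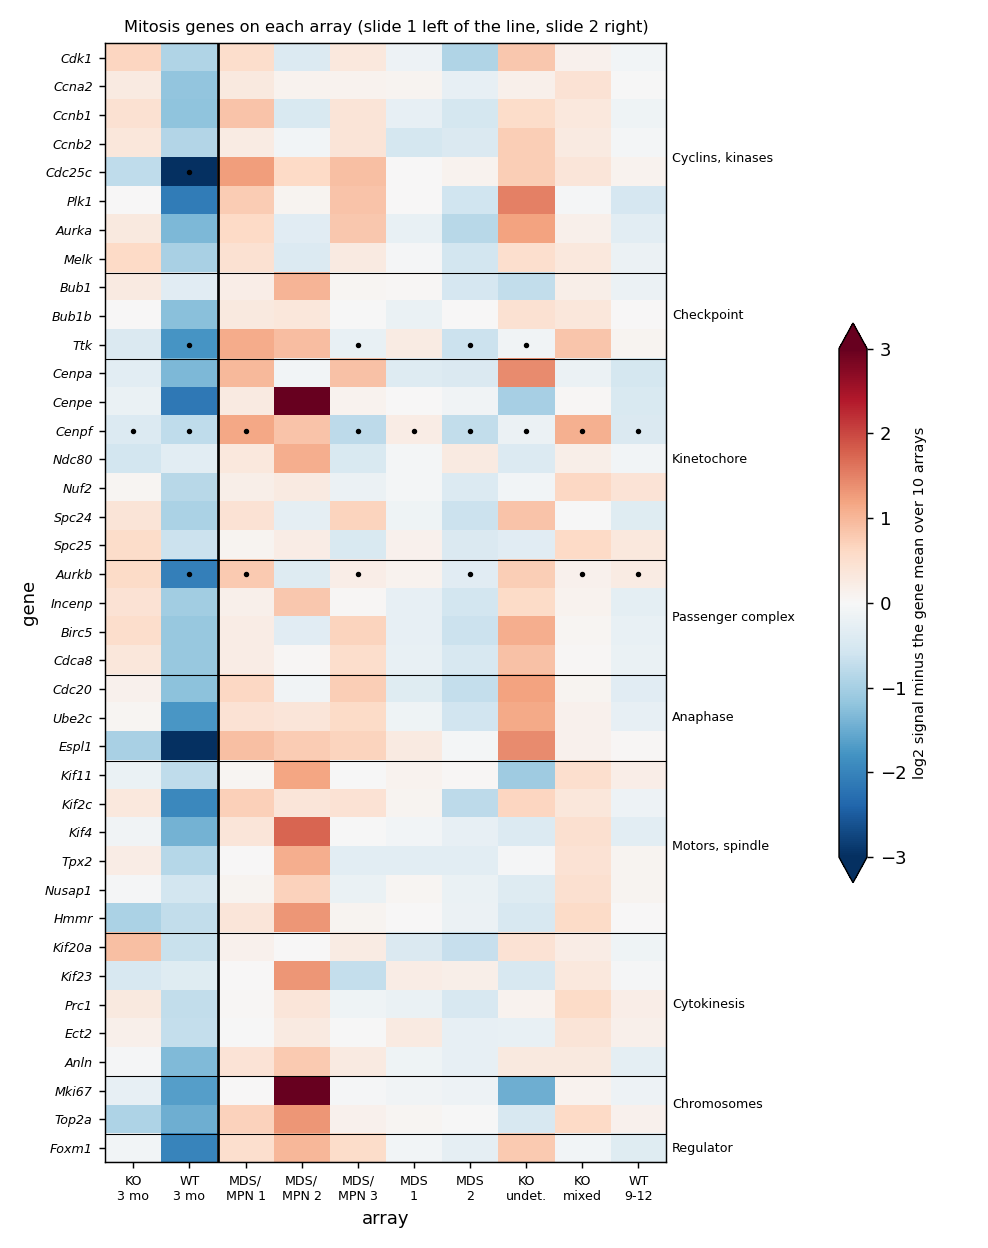
Level of each of the 39 mitosis genes (rows, by role) on each of the 10 arrays (columns), as the log2 signal minus the mean of the gene over the arrays, with colours clipped at 3 either way; black points mark arrays on which the gene was not well above background. The WT array of slide 1 is lowest for 31 genes, MDS/MPN replicate 2 highest for 14 and the undetermined KO highest for 12.

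On slide 1 the KO array had more RNA than the WT array for 36 of the 39 genes, beside 62.1% of all features measured. The median difference was 1.36 (log2), beside 0.23 over the 22427 features measured. Of the 38 members measured there 29 were at least 2-fold higher on the KO array and 0 at least 2-fold lower, where 12.8% of all features were at least 2-fold higher. With the arrays scaled on probes well above background on every array, an alternative added after seeing the data, the count was 18 of 38 beside 6.03% of features, and the median 0.99 beside -0.14. There is 1 array on each side and no test. On that WT array 31 of the 38 members that passed the filter on low signal in the fit of all arrays were lowest of the 10, beside 16.7% of features.

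Against the WT array of slide 2 the picture was flatter. The mixed KO array was above it for 38 of the 39 genes, beside 52.1% of all 19580 features. The median difference was only 0.36, beside 0.01 over all features. At least 2-fold higher were 0 of the 37 members measured, where 4.51% of features were. The 6 unmixed KO arrays differed from this WT array by a median of 0.21, beside -0.01 over 19595 features. Above 0 were 31 of 39 differences, beside 48.8% of features. Limma called 0 of the 38 members tested higher at an adjusted p of 0.05, with 0 at an unadjusted p of 0.05, beside 0.0051% and 1.42% of features. In 3 members, Cenpa, Anln and Foxm1, every one of the 6 arrays was above the WT array, beside 9.29% of features.

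By array, the members sat at a median of 0.54, 0.53 and 0.32 above the WT array of slide 2 on MDS/MPN replicates 1, 2 and 3, at 0.05 and -0.30 on MDS replicates 1 and 2, and at 0.50 on the undetermined KO. The 2 MDS arrays alone, which share its row of the slide, gave a median difference of -0.12, so that the sign of the 6-array median depended on which KO mice were compared. MDS replicate 2 was below the WT array for 31 of the 39 members, and MDS/MPN replicate 1 above it for 32.

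**Figure D2:**
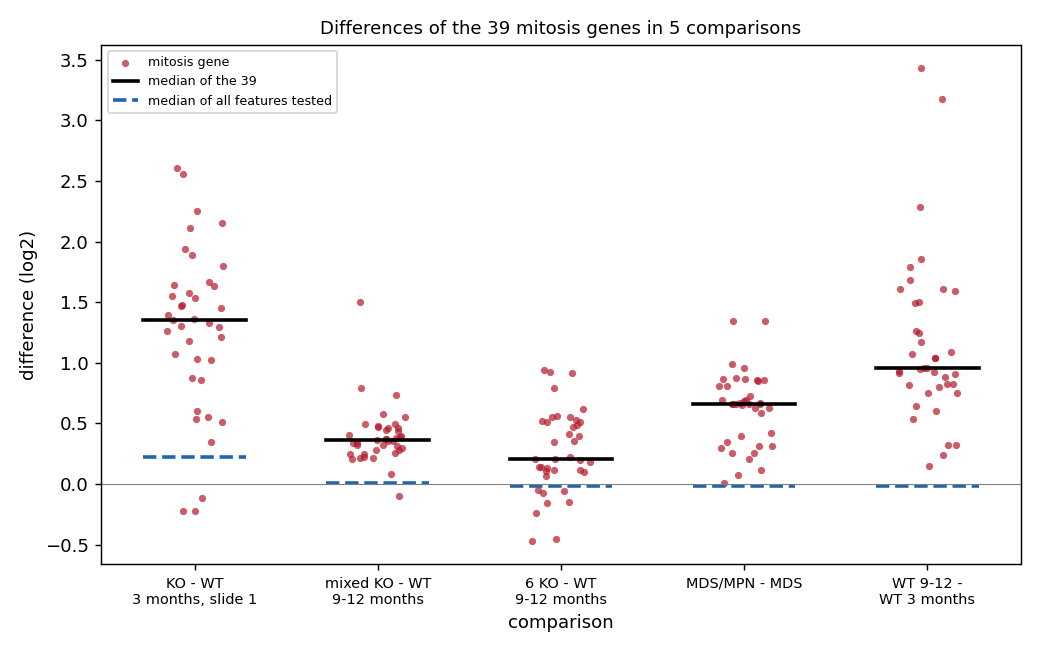
Differences of the 39 mitosis genes (points, log2, spread sideways at random) in 5 comparisons, with the median of the 39 (black line) and of all features tested (dashed blue line). The medians of the members are 1.36 for KO minus WT at 3 months, 0.36 for mixed KO minus WT, 0.21 for the 6 KO arrays minus WT at 9-12 months, 0.66 for MDS/MPN minus MDS and 0.95 for WT at 9-12 months minus WT at 3 months.

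When the 8 KO arrays were set against the 2 WT arrays with a term for the slide, every one of the 39 differences was above 0, from 0.06 for Ndc80 to 1.32 for Plk1, with a median of 0.73 beside 0.03 over 22356 features, of which 53.3% were above 0. None passed the test across all features: limma called 0 of 38 members, beside 0.0% of features, and 5 members had an unadjusted p under 0.05, beside 1.9% of features. These were Foxm1, Cdc25c, Plk1, Espl1 and Anln, with adjusted p between 0.763 and 0.863. Every KO array was above both WT arrays in Cenpa, Anln and Foxm1, 3 of 38 members, beside 3.17% of features. The median rests on the slide 1 pair, whose difference drops out of the fit when either of its arrays is left out. Without either array the median was 0.25, and the difference was below 0 for 7 of the 39 members (Nuf2, Spc25, Prc1, Ect2, Kif11, Aurkb and Nusap1, from -0.37 to -0.01). The fit cannot tell which array of the pair matters. Without the WT array of slide 2 only the slide 1 pair, 1 array on each side, gave the difference, with a median of 1.36.

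Between the WT arrays, the one labelled 9-12 months was above the one labelled 3 months for all 39 genes, beside 49.0% of all 22043 features. The median difference was 0.95, beside -0.02 over all features. At least 2-fold higher were 17 of the 37 members measured, beside 9.87% of features. Under the labels of the deposited value table the same difference is -0.96. The difference of KO from WT at 9-12 months less its value at 3 months had a median of -1.12 over the members, beside -0.23 over 23290 features. Limma called 0 of 38 members lower in this contrast, beside 0.0% of features, and 2 had an unadjusted p under 0.05, beside 2.59%: Aurkb (-2.66 ± 0.93 SE, adjusted p = 0.760) and Cdc25c (-2.07 ± 0.90, adjusted p = 0.981). Aurkb was not well above background on either WT array, nor Cdc25c on the one labelled 3 months, so both differences rest partly on dim values. With the value table's labels the median of the contrast is 0.86, the other way.

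Among the cyclins and kinases of mitotic entry all 8 members were at least 2-fold higher on the KO array of slide 1, where 12.8% of all features were. The same share applies to the counts of the other roles below. Plk1, a kinase that acts at centrosomes, kinetochores and the division plane, read 5.14 on the KO array and 3.03 on the WT array of slide 1. On slide 2 it read 5.87, 5.20 and 5.97 on the MDS/MPN arrays, 5.13 and 4.52 on the MDS arrays, 6.63 on the undetermined KO and 5.08 on the mixed KO, against 4.61 on the WT array. The WT array of slide 1 was far below every other array and the undetermined KO highest, and on slide 2 MDS replicate 2 lay below WT, so the genotypes overlapped there. Over all arrays Plk1 was 2.50-fold higher in KO (1.32 ± 0.55 SE, 8 against 2 arrays, limma adjusted p = 0.846). Cdc25c read -0.88 on the KO array of slide 1 and was not well above background on the WT array, a KO level at least 5.36-fold higher. On slide 2 its levels were 1.13, 0.48 and 0.78 on MDS/MPN, -0.11 and -0.02 on MDS, 0.63 on the undetermined KO and 0.24 on the mixed KO, against -0.01 on WT, so that both MDS arrays were just below WT and all MDS/MPN arrays above it. Across both slides it was 1.22 ± 0.49 (SE) higher in KO (adjusted p = 0.814). Aurka, the centrosomal Aurora kinase, read 4.99 on the KO array and 3.36 on the WT array of slide 1, and on slide 2 a lowest of 3.87, a median of 4.89 and a highest of 5.91 on the 6 KO arrays and 4.86 on the mixed KO, against 4.39 on WT.

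Cdk1 itself was 1.53 (log2) higher on the KO array of slide 1, and Ccna2, Ccnb1, Ccnb2 and the kinase Melk 1.46, 1.64, 1.21 and 1.57 higher. On slide 2 their 6-array means stood 0.10 to 0.22 above WT, all inside the spread of the KO arrays (SD 0.18 to 0.64). The other 2 probes of Cdk1 gave 1.97 and 0.69 on slide 1, the dimmer one well above background on 6 of 10 arrays, and the other 2 of Ccnb1 gave 1.33 and 1.72. On slide 2 the probes disagreed: the other Cdk1 probes stood at -0.23 and -0.58 relative to WT over the 6 arrays where the brightest gave 0.11, and the other Ccnb1 probes at 0.83 and 0.86 where the brightest gave 0.22.

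Of the 3 checkpoint members, 2 were at least 2-fold higher on the KO array of slide 1. Ttk, also called Mps1, the kinase that starts the checkpoint signal, was near background. It read -2.22 on the KO array of slide 1, at least 2.11-fold above the WT array, where it was not well above background, and it was well above background on 3 of the 6 KO arrays of slide 2. Bub1b, which encodes the checkpoint protein BubR1, read 1.96 and 0.70 on the KO and WT arrays of slide 1, and a lowest of 1.76, a median of 2.11 and a highest of 2.41 on the 6 KO arrays and 2.28 on the mixed KO, against 1.96 on the WT array of slide 2. Bub1, a kinetochore kinase, read 1.25 and 0.65 on slide 1, and 0.25 to 2.01 with a median of 1.03 on the 6 KO arrays, with 1.16 on the mixed KO, against 0.80 on WT. In Bub1 the lowest of all 10 arrays was the undetermined KO, not the WT array of slide 1.

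The 7 kinetochore members split. Cenpa, the histone H3 variant that marks centromeres, was the member whose KO arrays on slide 2 were all above WT by the largest mean difference (0.92 ± 0.74 SE, limma adjusted p = 0.9999). It read 3.47 on the KO array and 2.43 on the WT array of slide 1, and on slide 2 it read 4.76, 3.69 and 4.67 on MDS/MPN, 3.40 and 3.35 on MDS, 5.20 on the undetermined KO and 3.62 on the mixed KO, against 3.26 on WT. The MDS arrays were just above WT and the undetermined KO was far above it. Cenpe, the kinetochore motor that brings chromosomes to the spindle equator, read 0.64 and -1.30 on the KO and WT arrays of slide 1. On slide 2 its values were 1.11, 4.32 and 0.96 on MDS/MPN, 0.85 and 0.73 on MDS, -0.14 on the undetermined KO and 0.89 on the mixed KO, against 0.39 on WT. Here 1 array, MDS/MPN replicate 2, stood far above the other 9. Spc24, of the Ndc80 complex that grips microtubules, read 3.45 and 2.09 on slide 1, and 2.41 to 3.91 with a median of 3.20 on the 6 KO arrays, with 3.03 on the mixed KO, against 2.69 on WT. Spc25 and Nuf2 were 1.18 and 0.88 higher on the KO array of slide 1. On slide 2 the mean of the 6 unmixed KO arrays differed from WT by -0.45 ± 0.44 (SE) for Spc25 and -0.47 ± 0.41 for Nuf2. The mixed KO was above WT there, by 0.28 for Spc25 and 0.21 for Nuf2. Ndc80 differed by -0.22 between the KO and WT arrays of slide 1 and by 0.21 ± 0.59 (SE) on slide 2. Cenpf was well above background on 1 array, MDS/MPN replicate 2, and entered no test.

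The chromosomal passenger complex, which corrects faulty kinetochore attachments and later works at the division plane, has 4 members in the set, all at least 2-fold higher on the KO array of slide 1. Birc5, encoding survivin, read 7.20 on the KO array and 5.53 on the WT array of slide 1. Its 6 KO arrays of slide 2 spanned 6.02 to 7.75 with a median of 6.65, and the mixed KO read 6.73, against 6.45 on WT. Its other 2 probes gave 1.37 and 1.55 on slide 1 where the brightest gave 1.67. Incenp, the scaffold of the complex, read 5.58 and 4.12 on slide 1, and 4.60 to 5.97 with a median of 5.25 on the 6 KO arrays and 5.26 on the mixed KO, against 4.87 on WT. Aurkb, its kinase, was dim. It was not well above background on either WT array, was so on 3 of the 6 KO arrays of slide 2 and on the KO array of slide 1, and stood at least 3.14-fold above WT on slide 1. Cdca8, encoding borealin, was 1.48 higher on the KO array of slide 1 and 0.35 ± 0.55 (SE) above WT on slide 2.

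All 3 members that carry out anaphase were at least 2-fold higher on the KO array of slide 1. Espl1, separase, the protease that opens the cohesin rings, read 0.35 on the KO array and -1.81 on the WT array of slide 1. On slide 2 it read 2.24, 2.11 and 2.001 on MDS/MPN, 1.59 and 1.27 on MDS, 2.76 on the undetermined KO and 1.45 on the mixed KO, against 1.37 on WT. Both arrays of slide 1 were below all 8 of slide 2, and within slide 2 the MDS/MPN arrays were above the MDS arrays. Ube2c, the ubiquitin-conjugating enzyme of the anaphase-promoting complex, read 4.39 and 2.59 on slide 1 and 3.77 to 5.48 with a median of 4.74 on the 6 KO arrays, with 4.46 on the mixed KO, against 4.09 on WT, and its other probe gave 1.88 on slide 1 where this one gave 1.80. Cdc20 read 5.96 and 4.59 on slide 1 and 5.10 to 7.03 with a median of 6.08 on the 6 KO arrays, with 5.90 on the mixed KO, against 5.50 on WT. Of 12 measured genes for subunits and activators of the anaphase-promoting complex, 1 was at least 2-fold higher on slide 1, Anapc5 (1.08).

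Motors and spindle proteins differed from each other on slide 1, from -0.22 for Hmmr to 2.25 for Kif2c. Kif2c, a kinesin that takes microtubules apart at kinetochores, read 0.43 on the KO array and -1.82 on the WT array of slide 1, a 4.77-fold difference, while its 6 KO arrays of slide 2 spanned -0.67 to 0.84 with a median of 0.52 and the mixed KO read 0.46, against -0.03 on WT. Its other probe gave 2.05 where this one gave 2.25. Kif4, a chromosome-bound kinesin, read -0.23 and -1.54 on slide 1 and -0.53 to 1.62 with a median of -0.17 on the 6 KO arrays, with 0.34 on the mixed KO, against -0.45 on WT. Tpx2, which activates Aurora A on the spindle, read 2.18 and 1.11 on slide 1 and 1.65 to 3.07 with a median of 1.80 on the 6 KO arrays, with 2.41 on the mixed KO, against 2.04 on WT, so that 1 of the 6 was above WT. Its other probe gave 1.18 on slide 1. Kif11, the kinesin that pushes the poles apart, and Nusap1 differed by 0.55 and 0.52 on slide 1.

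Among the 5 cytokinesis members 3 were at least 2-fold higher on the KO array of slide 1. Anln, anillin, the scaffold of the contractile ring, read 1.99 and 0.70 on the KO and WT arrays of slide 1. On slide 2 it read 2.43, 2.81 and 2.30 on MDS/MPN, 1.91 and 1.80 on MDS, 2.33 on the undetermined KO and 2.32 on the mixed KO, against 1.74 on WT, the lowest of the 8. Its difference over both slides was 0.81 ± 0.35 (SE, adjusted p = 0.863). Kif20a, a kinesin of the central spindle, read 3.90 and 2.35 on slide 1 and 2.32 to 3.44 with a median of 3.07 on the 6 KO arrays, with 3.23 on the mixed KO, against 2.89 on WT. Prc1, which bundles the microtubules of the central spindle, read 4.42 and 3.39 on slide 1 and 3.64 to 4.49 with a median of 4.08 on the 6 KO arrays, with 4.71 on the mixed KO, against 4.32 on WT. Its difference over all arrays, 0.28, became -0.15 without the 3-month WT array or the 3-month KO array. Ect2, which activates RhoA for the contractile ring, differed by 0.86 on slide 1 and by -0.16 on slide 2, and Kif23 by -0.11 on slide 1.

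Both chromosome proteins were highest on MDS/MPN replicate 2. Mki67, the proliferation marker Ki-67 that coats mitotic chromosomes, read 2.35 on the KO array and 0.95 on the WT array of slide 1. On slide 2 it read 2.60, 6.29 and 2.57 on MDS/MPN, 2.50 and 2.44 on MDS, 1.12 on the undetermined KO and 2.70 on the mixed KO, against 2.45 on WT. Apart from MDS/MPN replicate 2 and the undetermined KO, the arrays of slide 2 lay close together. A second Mki67 probe gave a difference of 1.47 on slide 1 where this one gave 1.40. Top2a, the topoisomerase that untangles sister chromatids, read 1.84 and 1.30 on slide 1 and 2.29 to 4.10 with a median of 2.86 on the 6 KO arrays, with 3.37 on the mixed KO, against 2.91 on WT. Foxm1, the transcription factor of the G2 and M genes, read 1.20 and -0.68 on the KO and WT arrays of slide 1, and on slide 2 1.79, 2.30 and 1.84 on MDS/MPN, 1.22 and 1.03 on MDS, 2.09 on the undetermined KO and 1.22 on the mixed KO, against 0.92 on WT, again the lowest of its slide. It had the lowest p of the set over all arrays (2.21-fold, 1.14 ± 0.43 SE, adjusted p = 0.763).

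**Figure D3:**
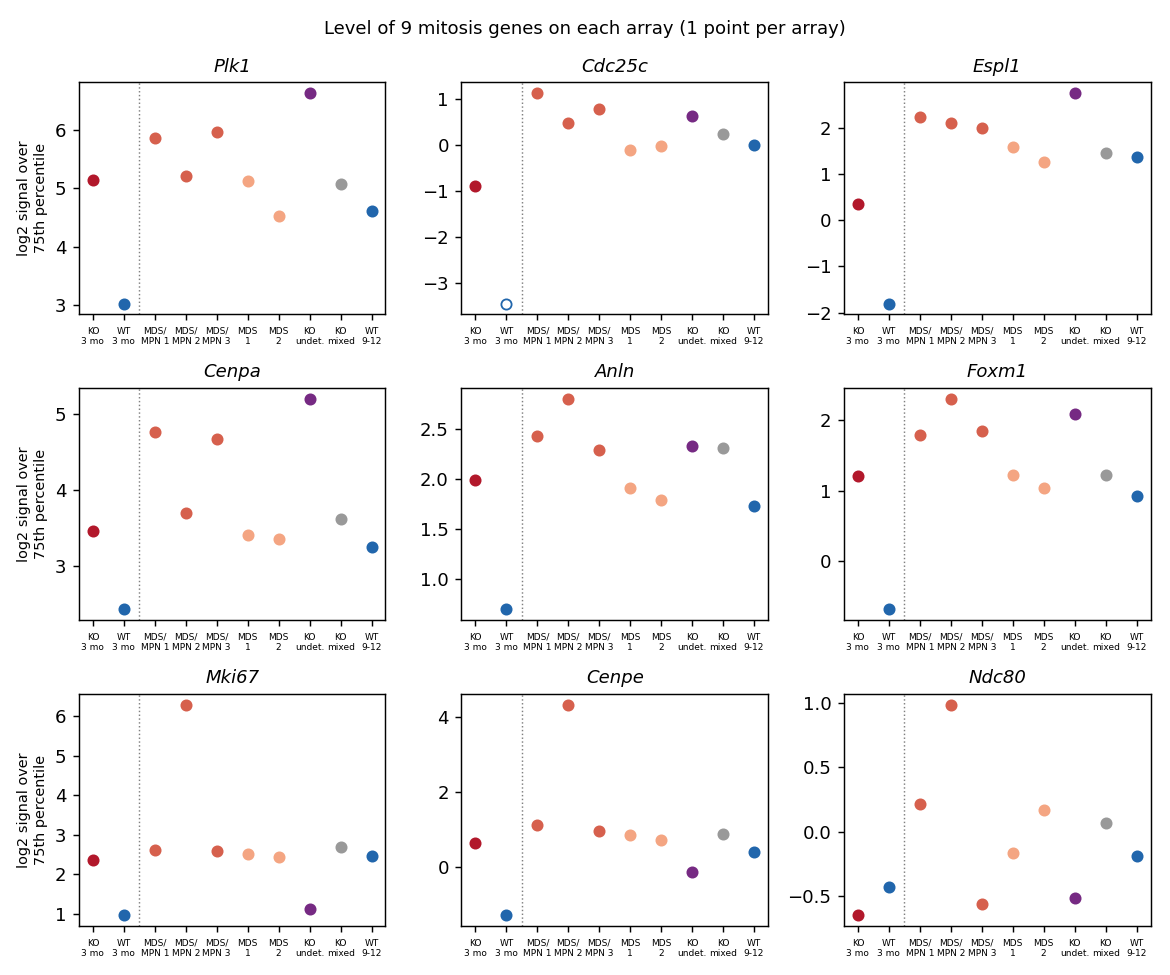
Level of 9 mitosis genes (log2 signal over the 75th percentile of the array) on each array, KO to the left of WT within each slide, the slides parted by a dotted line; an open circle marks an array on which the gene was not well above background. Plk1, Espl1, Cenpa, Anln and Foxm1 are higher on all 3 MDS/MPN arrays than on both MDS arrays, Mki67 and Cenpe stand out on MDS/MPN replicate 2, and Ndc80 shows no split by genotype.

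Within the KO arrays, all 39 mitosis genes averaged higher in MDS/MPN than in MDS, beside 48.7% of 20724 features. The differences ran from 0.01 for Kif23 to 1.35 for Mki67, with a median of 0.66 beside -0.02 over all features. Limma called 0 of 38 members (adjusted p at least 0.992), beside 0.0% of features, and 0 had an unadjusted p under 0.05, beside 1.49% of features. Every MDS/MPN array was above both MDS arrays for 22 of 38 members, beside 7.74% of features. Ube2c averaged 4.80 ± 0.11 in MDS/MPN and 3.99 ± 0.30 in MDS (SD, n = 3 and 2), 1.75-fold higher. Espl1 averaged 2.12 ± 0.12 in MDS/MPN and 1.43 ± 0.23 in MDS, Foxm1 1.98 ± 0.28 in MDS/MPN and 1.13 ± 0.13 in MDS, and Kif20a 3.13 ± 0.12 in MDS/MPN and 2.44 ± 0.18 in MDS. Mki67 averaged 3.82 ± 2.14 in MDS/MPN and 2.47 ± 0.04 in MDS, a difference carried by 1 array. Cdk1, Ccnb1, Aurka, Melk and Birc5 had differences of 0.40 to 0.87, with MDS/MPN replicate 2 inside the range of the MDS arrays.

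Without MDS/MPN replicate 2 the median was 0.51 beside 0.15 over 21528 features, and again limma called 0 members. Both remaining MDS/MPN arrays were then above both MDS arrays for 29 of 38 members, but also for 41.0% of features, a comparison added after seeing the data. The median was 0.50 beside -0.18 with scaling on probes well above background. Markers moved with the disease label too. Of the 5 stem cell markers 3 had an unadjusted p under 0.05, with differences of -2.87 for Hlf, -2.53 for Procr and -1.45 for Esam. The other 2 had differences of 1.83 (Mecom) and 0.70 (Slamf1) and missed it. Of the 5 LSK markers 3 also had such a p, with -1.99 for Flt3, -1.22 for Kit and -1.18 for Meis1. Of all 20724 features, 613 were lower at that p. No marker of these lists passed adjustment (limma adjusted p of 0.973 to 0.992). The summed level of the 5 stem cell markers was 3.78 to 8.61 in MDS/MPN and 29.4 to 30.3 in MDS, that of the 6 neutrophil markers 821.1 to 2004 in MDS/MPN and 608.0 to 963.5 in MDS, and that of the 4 megakaryocyte markers 25.9 to 233.6 in MDS/MPN and 27.6 to 39.7 in MDS. Their part in the mitosis difference was not tested. Disease label and row of the slide cannot be told apart.

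Array by array within KO, the members did not share 1 order. MDS/MPN replicate 2 was highest of all 10 arrays for 14 of the 38 members that passed the filter, beside 11.6% of features, among them Mki67, Cenpe, Top2a, Kif11, Kif4, Tpx2, Nusap1, Hmmr, Ndc80 and Bub1. The undetermined KO was highest for 12, beside 21.9% of features, among them Plk1, Aurka, Cdk1, Ccnb2, Birc5, Cdca8, Cdc20, Ube2c, Espl1, Cenpa and Spc24. It was lowest of the 6 for Mki67 (1.12), Cenpe (-0.14), Kif11 (-0.35), Top2a (2.29) and Hmmr (1.24), although it was highest for Plk1 (6.63) and Cdc20 (7.03). The summed level of the 8 cyclins and kinases was 315.0 on the undetermined KO and 150.2 on MDS/MPN replicate 2, and that of the 2 chromosome proteins 7.06 and 95.3. MDS replicate 2 was lowest of the 6 for 22 members.

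Other cell cycle genes, taken from lists written for this comparison with earlier results known, followed the members in part. In the fit of all KO against both WT arrays, limma called 0 genes of any of these lists. Of all features measured on slide 1, 62.1% were higher on the KO array and 12.8% at least 2-fold higher, with a median of 0.23. Of 45 further G2 and M genes, 39 were higher on the KO than on the WT array of slide 1 (median 1.04, with 25 of the 43 measured at least 2-fold), and the largest differences over all arrays were 1.16 for Ccnf, 1.11 for Gtse1, -0.28 for Pttg1, the separase inhibitor securin, and -0.27 for Kif18a. Of 37 DNA replication genes 34 were higher on the KO array of slide 1 (median 1.16, with 22 of 36 measured at least 2-fold), with 2.08 for Ccne1, cyclin E1, 1.17 for Orc1, -0.33 for Pola1 and -0.09 for Gins3 over all arrays. The median of the replication genes on slide 1 was thus close to that of the mitosis genes. On MDS/MPN replicate 2, however, the replication list stood 0.36 below its mean over the arrays where the mitosis genes stood 0.36 above theirs.

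The other cell cycle lists had lower medians on slide 1. The 13 subunits and activators of the anaphase-promoting complex had a median of 0.58, with 0.61 for Anapc5, 0.51 for Fzr1, -0.42 for Cdc27 and -0.06 for Cdc23 over all arrays. The 11 genes of MuvB and its partners had a median of 0.57, and Mybl2, which encodes B-Myb and is itself a cell cycle gene, was 2.59 higher on the KO array of slide 1 and 1.67 ± 0.61 (SE, limma adjusted p = 0.730) over all arrays, with 0.91 for E2f4, -0.45 for E2f5 and -0.17 for Lin52. The 9 G1 genes had a median of 0.30, with 0.97 for Myc, 0.67 for Cdk6, -0.19 for Mycn and -0.11 for Cdk2 over all arrays. Of the CDK inhibitor genes the median had the other sign, with 1 of 7 higher on the KO array of slide 1 and a median of -0.53. Cdkn1c, encoding p57, an inhibitor known from quiescent stem cells, read -0.74 on the KO array and 3.02 on the WT array of slide 1. Over all arrays it was -1.84 ± 0.71 (SE, limma adjusted p = 0.786), with -0.68 for Cdkn2b, 0.24 for Cdkn1a and 0.15 for Cdkn2c. Cdkn2b was well above background on the WT array of slide 1, but not on the mixed KO or the WT array of slide 2.

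**Figure D4:**
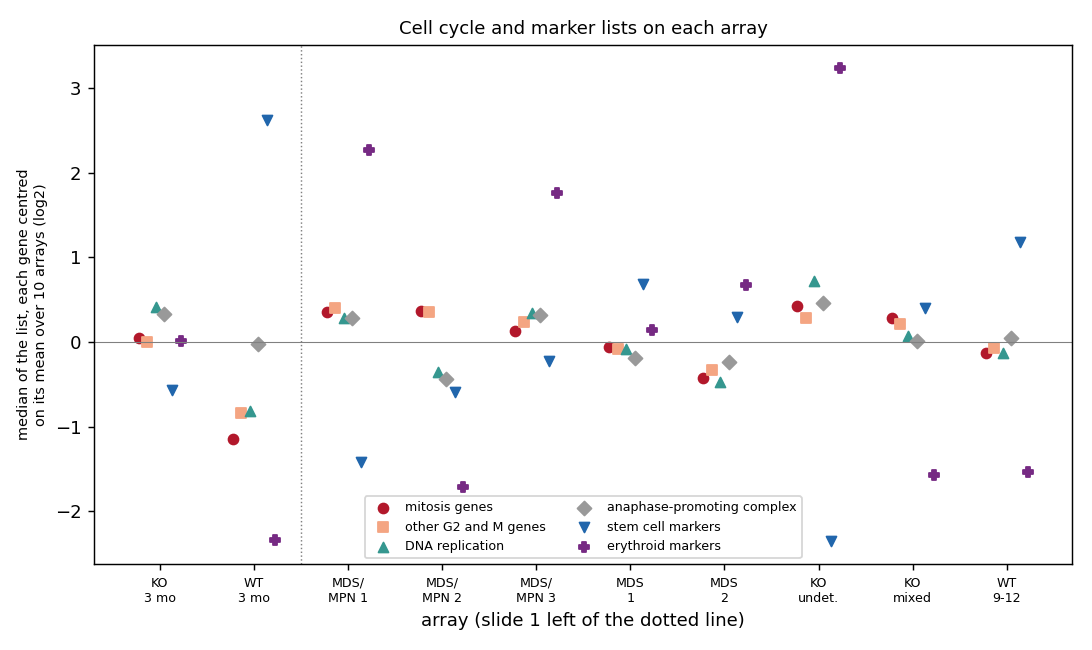
Median of 6 gene lists on each array, each gene centred on its mean over the 10 arrays (log2), KO to the left of WT within each slide. On the WT array of slide 1 the mitosis genes are at -1.15 and the stem cell markers at 2.63; on the WT array of slide 2 they are at -0.12 and 1.18.

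Markers of stem cells and of several other cell types also differed between the 2 arrays of slide 1, not all in the direction of the mitosis genes. The 5 stem cell markers (Mecom, Hlf, Procr, Slamf1 and Esam) were all at least 2-fold lower on the KO array, with a summed level of 7.69 on the KO array and 73.7 on the WT array. Procr, the protein C receptor used to sort stem cells, read 1.43 on the KO array and 5.36 on the WT array. Of 7 erythroid markers 5 were higher on the KO array, summing to 29.8 against 2.18 on WT, with Hbb-b1 and Alas2 not well above background on either and Klf1 not on WT. Of 6 mast cell and basophil markers 5 were higher, summing to 36.9 against 14.7, with Cma1 not well above background on WT. Of 6 neutrophil markers 4 were higher, where 62.1% of all features were. They summed to 1657 against 151.0, mostly through Mpo (10.61 on the KO array and 6.95 on the WT array, log2), while Ltf and Ngp differed by -2.08 and -0.37. All 4 monocyte and macrophage markers were higher, summing to 114.9 against 17.0. Of 4 megakaryocyte markers 2 were higher, summing to 62.2 against 62.4, with 0.75 for Pf4 and -3.21 for Vwf, all 3 T cell markers were higher, summing to 25.8 against 20.5, and none of the 4 B cell markers was well above background on either array. Over slide 2 the summed stem cell markers ranged from 2.38 on the undetermined KO to 30.3 on MDS replicate 2, against 31.6 on WT, and the summed erythroid markers from 6.91 on the mixed KO to 193.2 on the undetermined KO, against 4.30 on WT. What part these cells or genes have in the level of the mitosis genes was not tested.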

How the data were processed

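LSK RNA, 0.02 µg per sample, was labelled with Cy3 and hybridised to 1-colour Agilent arrays, per the labels' protocols. The intensities deposited by the authors were made with Feature Extraction 10.7.1.1, per the file headers, where the submitters' processing notes name version 9.1, and the array annotation is on mm9. The authors' value table, deposited as a ratio without a stated scale, had column medians of 0.072 to 0.115. Against the scanner files, with an SD of the log2 ratio of at most 0.0005 to the best match over 13789 probes, it is a linear signal divided within each array, and how it was centred stays unknown.

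Values were log2 of the processed signal minus log2 of its 75th percentile on the array. Spots of 1 probe were averaged without outlier spots, and the brightest probe, by mean log2 signal, stood for a gene. Probes were named through RefSeq accessions, 27656 of 55681 by 1 symbol. A feature was tested where it was well above background on at least 50% of the arrays of 1 group compared. For "at least" folds a dim value was replaced by the lowest among those above background of its own array, if higher. Where groups had 1 array, its spread was assumed to be that of the KO arrays. Tests used limma 3.58.1 (lmFit and eBayes) in R 4.3.3 across all features with Benjamini-Hochberg adjustment at 0.05, and pairs of arrays a 2-fold threshold without a test. The fits were tested on simulated data. Figures were drawn with matplotlib 3.10.9 from tables made with pandas 2.3.3 and numpy 2.4.6 under Python 3.11.15. The number of arrays limits the precision. Described by array were, in each role, up to 3 members with the largest difference over all arrays and any past the threshold in a fit. The members and all lists were chosen with earlier results of these data known. Some marker genes are not reported here and were left out of the marker lists.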

Additional observations from a re-analysis of the deposited data

Results flagged for a closer look

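In the 6 unmixed KO arrays of 9-12 months, 4 of the 36 members well above background on all 6 had 1 array apart from the others by a Dixon test at the 95% level, which flags about 1 in 20 groups by chance. All 4 were highest on MDS/MPN replicate 2: Mki67 at 6.29, where the other 5 arrays spanned 1.12 to 2.60; Cenpe at 4.32, where they spanned -0.14 to 1.11; Tpx2 at 3.07, where they spanned 1.65 to 1.98; and Kif4 at 1.62, where they spanned -0.53 to 0.25. The same array had the most probes well above background (47.5%) and the highest 75th percentile signal (301.7 intensity units, beside 78.7 to 144.8 on the others), and their part in these values was not tested.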

How the results depend on the processing

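No alternative run changed the count of 0 called members in the fits of all KO against both WT, of MDS/MPN against MDS and of the difference between times. For the 6 KO arrays against WT, the deposited value table with its own labels called 2 members, Cdc25c and Espl1, and the median difference was 1.28 in place of 0.21. Values and labels change together in that setting. Its WT values there are those of the scanner file of the WT array of slide 1, while the 6 KO arrays lie on slide 2. Genotype and slide cannot be told apart in it, so the 2 calls cannot be assigned to genotype. By the scanner file Cdc25c was not well above background on that WT array. The share of all features called in that setting is not given here. Under the value table's labels the 3-month pair had a median of 0.36, the mixed pair 1.36, the WT pair -0.96 and the difference between times 0.86. With the MDS arrays alone the median against WT was -0.12. Leaving out 1 array in turn gave medians of 0.25 to 1.36 for all KO against both WT and 0.50 to 0.81 for MDS/MPN against MDS. Scaling on probes well above background gave 0.50 for MDS/MPN against MDS, 0.99 for the 3-month pair and 18 members at least 2-fold higher there. Normexp with quantile normalization gave 0.53, 0.88 and, for the difference between times, -0.70. Of the 39 members, 7 turned sign without the 3-month WT array or the 3-month KO array, among them Aurkb and Prc1: over all arrays left out in turn Aurkb ranged from -0.0586 to 2.61 and Prc1 from -0.15 to 1.03. Trend and robust settings and filters have no separate value for a median over members. No paired analysis was possible because the groups compared share no replicate numbers that pair arrays.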
